A study of Mus musculus with 12 samples.

Results

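The genes described here are 52 genes of G2 and mitosis, sorted by role into cyclins and their kinase, the spindle checkpoint, anaphase onset, mitotic kinases, the chromosomal passenger complex, the centromere and kinetochore, spindle kinesins, spindle assembly, cytokinesis and chromosome structure. They were taken from a fixed list of symbols and looked up among the array's transcript clusters that carry exactly 1 gene symbol. The list was chosen with earlier results of these data known, so counts of its members are descriptions. Of the 52 genes, 51 had such a cluster, among 19938 genes measured in all. Ccnb1 (cyclin B1) is not analysed here. Top2a had 2 clusters, and the 1 with the higher mean over the 12 arrays stands for it.

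RNA came from C2i-Myog cells. C2C12, the mouse myoblast line behind them, was made to carry stably a doxycycline-inducible cDNA for Flag-tagged Myog (myogenin, a transcription factor of muscle differentiation). All 4 groups were the same line, near confluence, grown in DMEM with 10% FCS and then placed for 48 h in medium of 1% horse serum, 10 µg/mL insulin and 10 µg/mL transferrin, which makes myoblasts leave the cell cycle and fuse. The control group received nothing more. Its own label names no medium, and the protocol places it here. The Dox group received doxycycline at 0.2 µg/mL, the SB group received 10 µM SB203580, an inhibitor of the stress kinases p38α and p38β, and the SB+Dox group received both, each from the start of differentiation. Each group had 3 arrays, and nothing in the labels says that they came from separate cultures, so p-values measure the spread between these arrays. Cells lacking the transgene were not among the groups, so an action of doxycycline itself and one of exogenous Myog cannot be told apart.

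Myog, on a log2 scale, was 9.66, 10.18 and 9.89 in control, 10.39, 10.30 and 10.40 with Dox, 6.93, 7.96 and 8.21 with SB and 8.10, 8.23 and 8.68 with SB+Dox. It was thus lower on every SB and SB+Dox array than on every array without the inhibitor, and its signal fell by 2.21 ± 0.25 (SE, adjusted p = 9.39e-05) without doxycycline. It fell by 2.03 ± 0.25 (SE, adjusted p = 8.86e-05) with it. Doxycycline itself moved the cluster by 0.46 ± 0.25 (SE, adjusted p = 0.467) without the inhibitor and by 0.64 ± 0.25 (SE, adjusted p = 0.157) with it. Whether its probes read the exogenous cDNA is not stated in the sources used here. Array medians lay between 5.29 and 5.44. Of 6 measured myoblast markers, Des, Chrna1, Myod1 and Cdh15 had group means of 9.25 or more in every group. Myf5, a regulator of myoblast identity, had means of 6.85 ± 0.22 in control, 5.69 ± 0.22 with Dox, 7.45 ± 0.10 with SB and 7.11 ± 0.25 with SB+Dox (SD, n = 3 each). Pax7, the satellite cell regulator, had 5.38 ± 0.24, 5.37 ± 0.02, 5.29 ± 0.17 and 5.26 ± 0.07 (SD, n = 3 each) in the same order, near the array medians. Of 8 markers of other cell types, Ptprc, Csf1r, Pecam1, Cdh5, Epcam, Adipoq and Sox10 had group means between 2.98 and 5.36, near or under the array medians. Sox9, a cartilage regulator, had means from 7.40 to 8.13 and rose in the 3 comparisons in which Dox or SB+Dox stood against a group without doxycycline. The Sox9 call against control was lost for Dox without control array 3 or Dox array 1 or 2 (adjusted p = 0.0754 to 0.137), and that from SB to SB+Dox without SB+Dox array 3 (adjusted p = 0.0633).

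A dividing cell copies its DNA, then passes through G2 and divides in mitosis. Cyclin A and cyclin B switch on the kinase Cdk1, chromosomes condense and attach through kinetochores to the spindle, a checkpoint holds the cell until all are attached, and the anaphase-promoting complex then releases them and ends mitosis. The RNAs of these genes peak together in G2 and mitosis and are low in resting cells. Much of that timing is read from promoters by a short element named CHR (cell cycle genes homology region) and nearby CCAAT boxes bound by NF-Y. The DREAM complex represses such promoters in resting cells, and B-MYB with FOXM1 activates them in cycling cells. Myoblasts that form muscle leave this cycle for good.

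Promoter stretches of 8 members are shown first because these elements lie close to the start of transcription in most of the genes. Each runs from 120 bases before to 30 bases from the start on, 5′ to 3′ on the gene's strand, from RefSeq windows on GRCm38.p6. Capitals mark the CHR core TTTGAA and the NF-Y box CCAAT, each also in its reverse complement (TTCAAA and ATTGG). The stretches lie at chr10:69352883-69353032 (minus strand) for Cdk1, chr9:70421525-70421674 (minus) for Ccnb2, chr7:122159315-122159464 (plus) for Plk1, chr5:30666766-30666915 (plus) for Cenpa, chr9:61946770-61946919 (minus) for Kif23, chr15:99651627-99651776 (minus) for Racgap1, chr11:99024160-99024309 (minus) for Top2a and chr2:127831830-127831979 (minus) for Bub1.
Cdk1: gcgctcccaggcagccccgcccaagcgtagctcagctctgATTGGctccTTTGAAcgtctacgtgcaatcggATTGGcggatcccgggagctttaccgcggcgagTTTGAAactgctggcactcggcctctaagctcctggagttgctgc
Ccnb2: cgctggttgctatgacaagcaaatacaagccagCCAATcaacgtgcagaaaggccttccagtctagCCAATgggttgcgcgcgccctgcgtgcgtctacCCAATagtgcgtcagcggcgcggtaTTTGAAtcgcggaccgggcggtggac
Cenpa: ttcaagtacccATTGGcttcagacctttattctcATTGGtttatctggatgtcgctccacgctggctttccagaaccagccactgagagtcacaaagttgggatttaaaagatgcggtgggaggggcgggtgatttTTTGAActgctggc
Kif23: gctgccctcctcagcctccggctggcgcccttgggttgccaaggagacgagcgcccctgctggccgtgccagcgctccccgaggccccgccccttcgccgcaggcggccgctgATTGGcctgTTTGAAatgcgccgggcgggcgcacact
Racgap1: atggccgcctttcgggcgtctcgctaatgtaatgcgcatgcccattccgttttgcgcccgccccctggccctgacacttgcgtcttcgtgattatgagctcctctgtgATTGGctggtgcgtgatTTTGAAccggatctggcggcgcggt
Top2a: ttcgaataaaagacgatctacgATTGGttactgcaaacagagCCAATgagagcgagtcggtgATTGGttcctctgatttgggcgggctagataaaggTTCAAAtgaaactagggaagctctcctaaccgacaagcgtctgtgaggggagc
Plk1: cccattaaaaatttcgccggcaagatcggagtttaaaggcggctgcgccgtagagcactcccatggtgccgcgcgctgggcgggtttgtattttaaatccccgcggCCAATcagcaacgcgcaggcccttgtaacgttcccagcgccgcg
Bub1: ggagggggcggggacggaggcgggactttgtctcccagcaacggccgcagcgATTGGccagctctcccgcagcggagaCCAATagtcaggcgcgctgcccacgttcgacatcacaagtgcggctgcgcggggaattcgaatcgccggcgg
Cdk1 has 2 CHR cores and 2 NF-Y boxes in its stretch, Ccnb2 has 1 core and 3 boxes, and in both a core follows the last box. Kif23 and Racgap1 have 1 box followed closely by 1 core. Plk1 has 1 box here, and its CHR core lies in the RefSeq window outside the stretch. Bub1 has 2 boxes and no TTTGAA in its window.

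RefSeq windows of 300 bases (250 before to 50 after the start) were at hand for 41 of the 52 genes, in 45 windows. Window starts lay 316 to 3852 bases from the gene's start in RefSeq's gene table for Aurka, Ect2, Aspm, Kif2c and some Cenpk windows. Elsewhere they lay 71 bases or less from it. The Ect2 windows overlap, so a site in both counts in each. TTTGAA on either strand occurred in 30 of the 41 genes (73.2%), against 20.2% of all 27025 genes in the table. CCAAT occurred in 32 of 41 (78.0%), against 41.1% of all genes, and both together in 27 of 41 (65.9%), against 8.0%. A second CHR form, TTTAAA, occurred in 24.4% of the members and 14.9% of all genes. Other forms of the element were not searched, so a gene without these letters may still hold one. The E2F forms TTTCGCGC and TTTGGCGC, which do not overlap the other motifs searched, occurred in 1 of 41 members (2.4%), Cdk1, and in 0.9% of all genes. Of 32 DNA replication genes, 12.5% had TTTGAA, 62.5% had CCAAT and 31.2% had an E2F form. Of 77 mitotic genes outside the 52, 49.4% had TTTGAA, 62.3% had CCAAT, 33.8% had both and 7.8% had an E2F form.

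The CHR core was concentrated at the start itself: 14 of 45 member windows (31.11%) held it from the start to base 24 after it, against 1.03% of the windows of protein-coding genes. NF-Y boxes lay upstream, with 15 of 45 windows (33.33%) holding one from position -75 to -51, against 8.12%. Members without TTTGAA in the window were Ccnb1, Bub1, Mad2l1, Nek2, Melk, Birc5, Cenpe, Cenpk, Nuf2, Nusap1 and Ncaph. The measured members with and without it had close medians. The median change with SB against control was 0.66 over 30 genes with the core and 0.65 over 10 genes without it, and with Dox against control it was -0.89 and -0.93. Of the 10 genes without TTTGAA, Birc5 and Cenpe held TTTAAA, so this split does not separate genes with and without a CHR form. Whether the element bears on the changes was not tested. A match of letters is a description of the window and not a bound site.

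**Figure D1:**
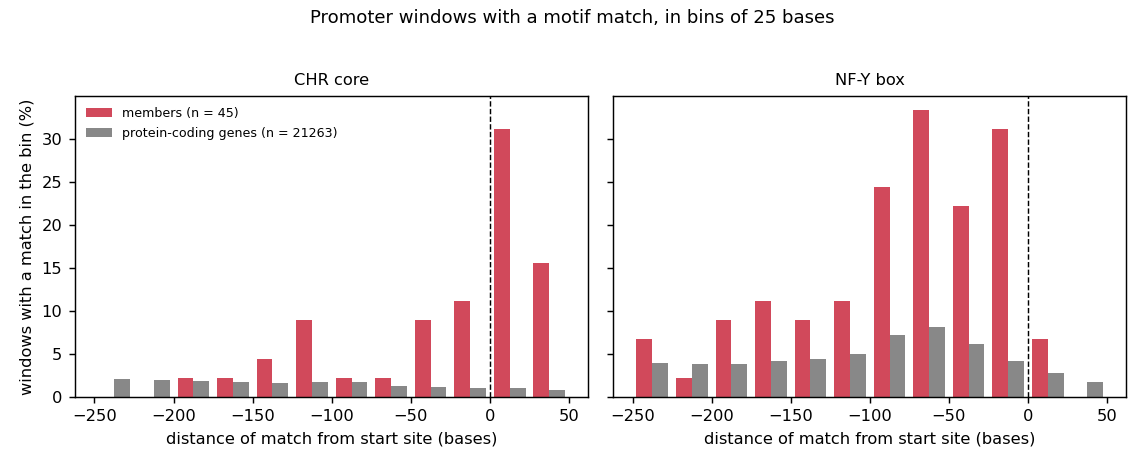
Share of promoter windows (%) with a match to the CHR core TTTGAA (left) or the NF-Y box CCAAT (right) in each bin of 25 bases, by distance from the start site in bases; red bars are 45 windows of 41 members and grey bars 21263 windows of protein-coding genes. The CHR core peaks at 31.11% of member windows just after the start, and the NF-Y box at 33.33% from position -75 to -51.

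In 50 of 51 members the group mean was highest with SB and lowest with Dox. The group mean with SB+Dox lay below that of control in 39 of these and above it in 11, a split that turned on single arrays, as given below. The remaining member, Spc24, was lowest with SB+Dox. The mean log2 signal over the 51 members was 5.88, 6.30 and 6.0 on the control arrays, 5.20, 5.26 and 5.07 with Dox, 6.60, 6.78 and 6.76 with SB, and 5.93, 6.17 and 5.71 with SB+Dox. The SB arrays therefore lay above and the Dox arrays below all others, while control and SB+Dox arrays overlapped. Members also moved together between replicates: array 2 of the control group was the highest of its group in 46 of 51 members, and array 2 of the SB+Dox group in 48, while SB+Dox array 3 lay below its group mean in all 51.

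**Figure D2:**
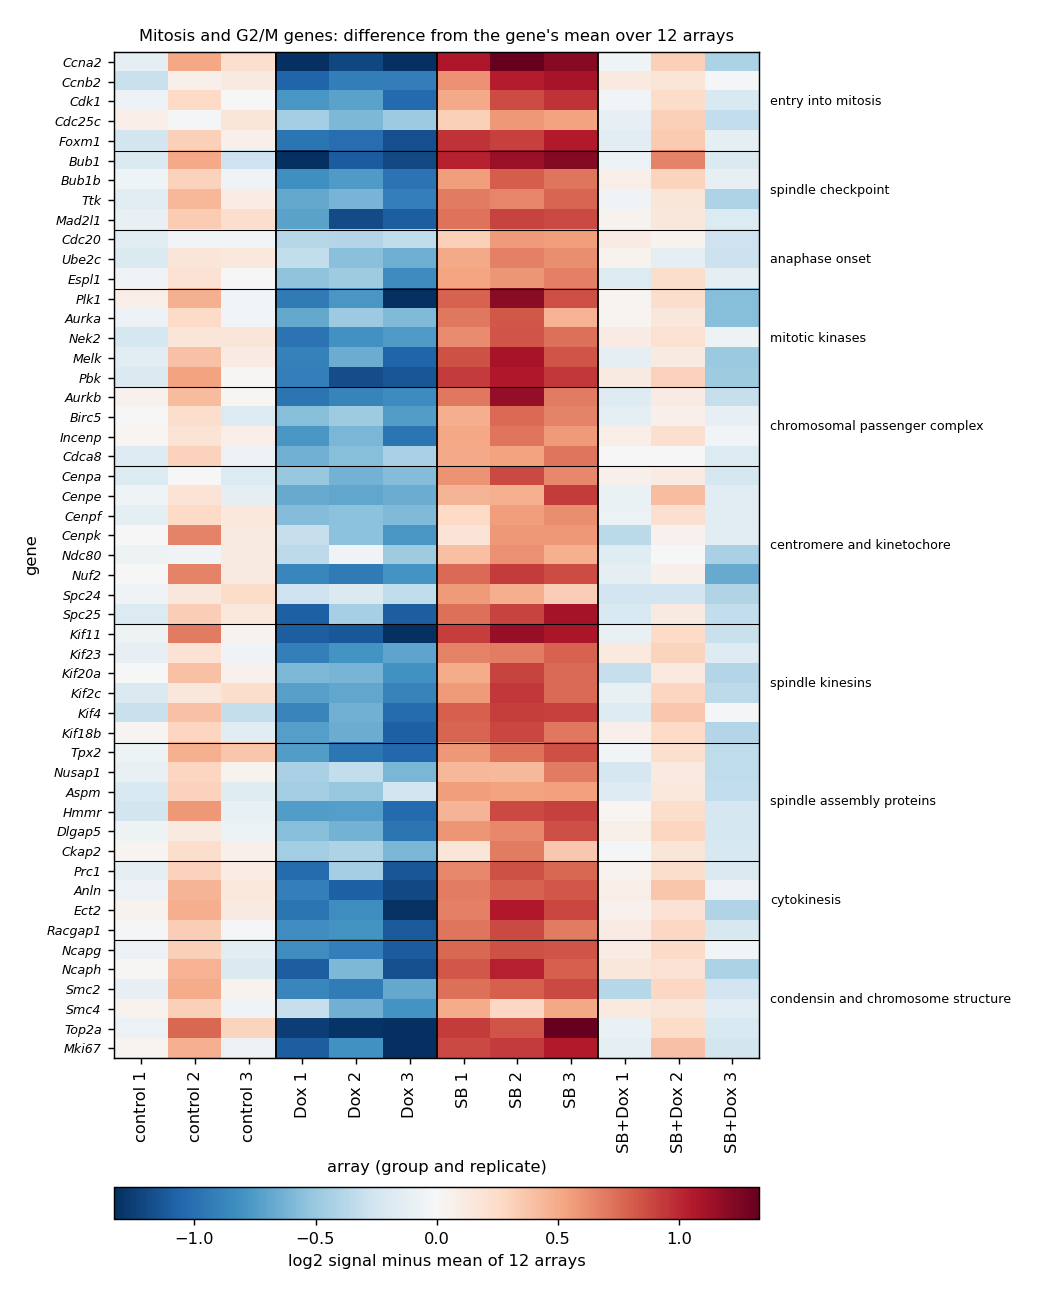
Heat map of 51 members (rows, by role) on 12 arrays (columns, by group and replicate); colour gives the log2 signal minus the gene's mean over the 12 arrays, red above and blue below, with the few most extreme values at the end of the colour scale. The 3 SB columns are red and the 3 Dox columns blue in nearly every row, and control and SB+Dox lie between them.

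Most of these genes were higher with SB203580 in differentiating cells, both without and with doxycycline. Without doxycycline, 41 of 51 members rose and 0 fell (limma, Benjamini-Hochberg adjusted p under 0.05 over 21789 clusters), where 2.51% of all clusters rose and 3.87% fell. Their median change was 0.66 on the log2 scale (1.58-fold), from 0.19 for Cenpk to 1.12 for Bub1. Over all 19938 genes, 1 cluster each, the median was 0.03. All 3 SB arrays lay above all 3 control arrays in 46 members, against 10.3% of all clusters. The rise was at least 2-fold in 2 members, Bub1 and Ccna2. The share of all clusters that changed this far was not counted, here or for the 2-fold counts below. How many members were called turned on single arrays: 18 rose without control array 1, 24 without control array 3 and 19 without SB array 2, while the median change stayed between 0.56 and 0.77 with any 1 array left out. The call held with any 1 array left out in 16 of the 41 (Ccna2, Ccnb2, Cdk1, Foxm1, Bub1, Bub1b, Mad2l1, Cdc20, Nek2, Melk, Birc5, Cenpa, Kif23, Kif4, Dlgap5 and Ncapg) and was lost at least once in 25. With every cluster of the array tested, also those with no symbol or several, 21 rose.

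With doxycycline present, the change is between 6 other arrays, while the spread is estimated over all 12. Here 43 of 51 members rose from Dox to SB+Dox and 0 fell, where 6.97% of all clusters rose and 3.43% fell. The median change was 0.77 (1.71-fold), from -0.03 for Spc24 to 1.40 for Bub1, against -0.03 over all genes. All SB+Dox arrays lay above all Dox arrays in 45 members, against 15.6% of all clusters, and the rise was at least 2-fold in 11. Between 32 and 46 members rose with 1 array left out, and 32 of the 43 calls held with any 1 array left out. The 11 that did not were Cdc25c, Ttk, Melk, Cdca8, Cenpf, Nuf2, Spc25, Kif20a, Hmmr, Ckap2 and Smc2. Members called in both inhibitor comparisons numbered 36, which is 36 of the 41 called without doxycycline and 36 of the 43 called with it. The share of all clusters called in both was not counted, here or for the doxycycline comparisons below. Cdc20, Ube2c, Aurka, Ndc80 and Aspm were called without doxycycline alone, Cdc25c, Cenpf, Nuf2, Tpx2, Hmmr, Ckap2 and Smc4 with it alone, and Cenpk, Spc24 and Nusap1 in neither.

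Nearly all members were lower with doxycycline, both without and with the inhibitor. From control to Dox, 48 of 51 fell and 0 rose, where 3.88% of all clusters fell and 1.43% rose. The median change was -0.89 (1.85-fold), from -1.66 for Top2a to -0.30 for Ndc80, against 0.00 over all genes. All Dox arrays lay below all control arrays in 50 members, Ndc80 being the exception, against 10.8% of all clusters, and the fall was at least 2-fold in 16. From SB to SB+Dox, on the other 6 arrays, 48 again fell and 0 rose, where 2.71% of all clusters fell and 4.4% rose. The median was -0.76 (1.69-fold), from -1.26 for Ccna2 to -0.38 for Smc4, against -0.05 over all genes. All SB+Dox arrays lay below all SB arrays in 49 members, against 12.3% of all clusters, and 8 fell at least 2-fold. Members called in both numbered 45. Cdc20, Ndc80 and Aspm were called from SB to SB+Dox alone, and Cenpk, Ckap2 and Smc4 from control to Dox alone. With the replicate number as a block, Cenpk (adjusted p = 0.029) and Ckap2 (adjusted p = 0.0191) also fell from SB to SB+Dox. With 1 array left out, 37 to 48 fell from control to Dox and 34 to 50 from SB to SB+Dox, and 36 and 34 of the 48 calls held with any 1 array left out. Those that did not were Cdc25c, Ube2c, Aurka, Cdca8, Cenpa, Cenpe, Cenpk, Spc24, Kif4, Nusap1, Hmmr and Ckap2 from control to Dox. From SB to SB+Dox they were Cdc25c, Bub1, Bub1b, Cdc20, Incenp, Cenpe, Cenpf, Kif4, Aspm, Hmmr, Dlgap5, Prc1, Anln and Ncaph. In these bulk samples fewer dividing cells and less of these RNAs per cell cannot be told apart.

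**Figure D3:**
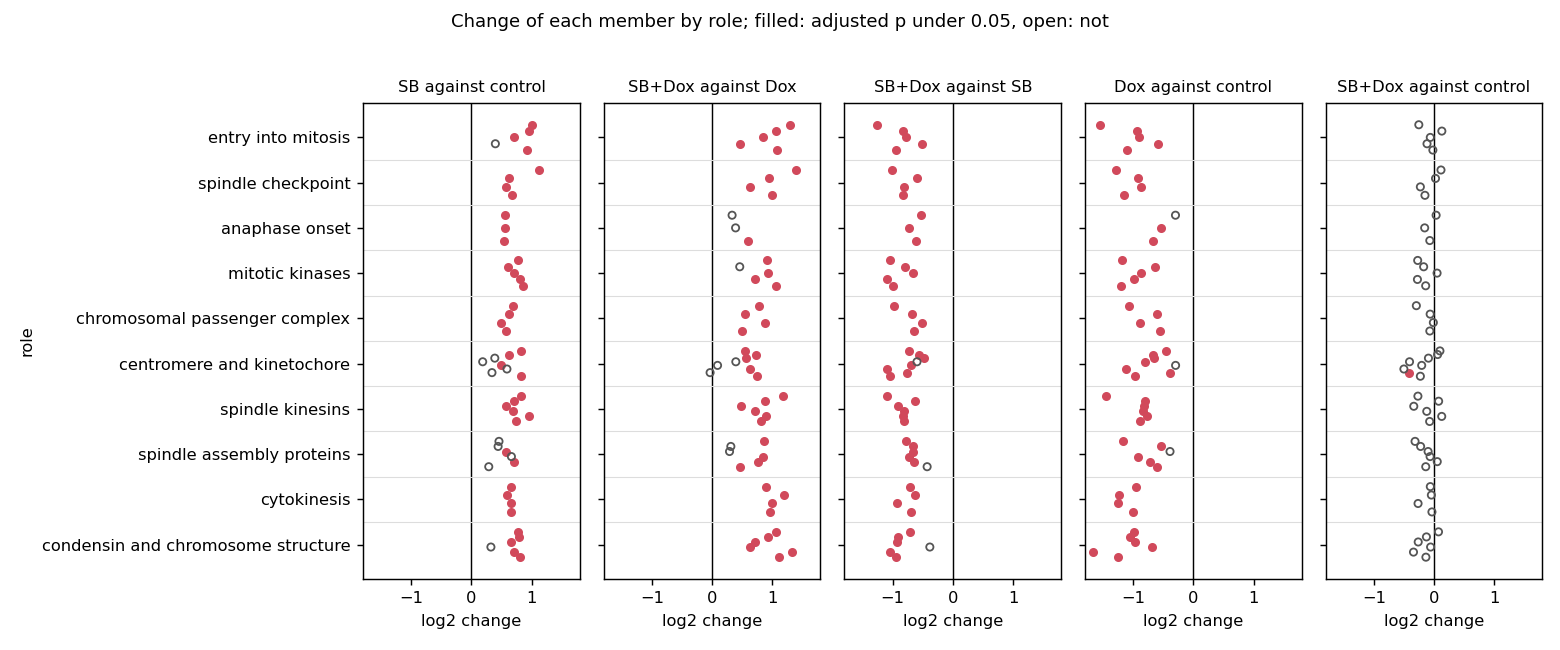
Log2 change of each of 51 members (1 dot each) by role in 5 comparisons; filled dots passed an adjusted p of 0.05 in limma and open dots did not. Dots lie right of 0 in both inhibitor comparisons, except Spc24 from Dox to SB+Dox, where 41 and 43 are filled, left of 0 in both doxycycline comparisons, where 48 are filled in each, and around 0 for SB+Dox against control, where 1 is filled.

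With both agents together the members ended near the control level. Of 51 members 1 fell and 0 rose from control to SB+Dox, where 2.42% of all clusters fell and 2.84% rose. An unadjusted limma p under 0.05 was seen in 4 members (7.8%, against 15.8% of all clusters), Cenpk, Nuf2, Spc24 and Kif20a. The median change was -0.12, from -0.50 to 0.13, against -0.02 over all genes, and 40 of the 51 changes were below 0. That count was 24 without control array 2, 25 without SB+Dox array 3 and 30 with array weights, so the sign of these small changes turned on single arrays. The 95% intervals had half-widths of 0.22 to 0.46 and held 0 in 47 members; all 51 lay within 1 log2 unit of 0, so a 2-fold difference lay outside every interval, while smaller ones did not. This comparison shares its arrays with the 4 above.

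Entry into mitosis is driven by cyclin A2 (Ccna2) and cyclin B2 (Ccnb2), which bind and activate Cdk1, by the phosphatase Cdc25c, which removes the inhibitory phosphates from Cdk1, and by Foxm1, the transcription factor of G2/M genes. Ccna2 was 7.28, 7.92 and 7.62 in control, 6.04, 6.20 and 5.92 with Dox, 8.48, 8.72 and 8.62 with SB and 7.35, 7.72 and 6.98 with SB+Dox. The Dox arrays were the lowest and the SB arrays the highest, with no overlap with the other groups, and control and SB+Dox overlapped. Ccna2 rose by 1.00 ± 0.18 (SE, 2.0-fold, adjusted p = 0.00285) from control to SB and by 1.30 ± 0.18 (SE, 2.46-fold, adjusted p = 0.000194) from Dox to SB+Dox. It fell by 1.55 ± 0.18 (SE, 2.93-fold, adjusted p = 0.000135) from control to Dox and by 1.26 ± 0.18 (SE, 2.39-fold, adjusted p = 0.000762) from SB to SB+Dox, the largest fall of any member in the latter. All 4 calls held with any 1 array left out. Ccnb2, Cdk1 and Foxm1 also passed in all 4 comparisons: from Dox to SB+Dox Ccnb2 rose by 1.06 and Foxm1 by 1.08, and Cdk1 rose by 0.84. Cdc25c rose from Dox to SB+Dox by 0.47 ± 0.14 (SE, 1.38-fold, adjusted p = 0.0407), a call lost without control array 1, any 1 Dox array, SB array 2 or SB+Dox array 1 or 2 (adjusted p = 0.0512 to 0.196), while its change from control to SB was 0.40 ± 0.14 (SE, adjusted p = 0.117).

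The spindle checkpoint delays anaphase while any kinetochore is unattached. Its kinases Bub1 and Ttk (Mps1), the kinase-like Bub1b (BubR1) and Mad2l1 (Mad2), which holds Cdc20 inactive, all 4 rose in both inhibitor comparisons and fell in both doxycycline comparisons. The rise of Ttk from control to SB was lost without control array 1 or 3, Dox array 1 or any 1 SB array (adjusted p = 0.0514 to 0.173), and that from Dox to SB+Dox without Dox array 3 or SB+Dox array 1 or 2 (adjusted p = 0.0538 to 0.0839). The fall of Bub1b from SB to SB+Dox was lost without SB array 2 or SB+Dox array 3 (adjusted p = 0.0523 to 0.0624). Bub1 was 5.17, 5.87 and 5.08 in control, 3.86, 4.25 and 4.16 with Dox, 6.38, 6.51 and 6.58 with SB and 5.28, 6.02 and 5.17 with SB+Dox. Its SB arrays lay above and its Dox arrays below all others, and array 2 of both the control and the SB+Dox group stood well above its 2 partners. Bub1 showed the largest rise of any member, 1.12 ± 0.22 (SE, 2.17-fold, adjusted p = 0.00554) from control to SB and 1.40 ± 0.22 (SE, 2.64-fold, adjusted p = 0.000571) from Dox to SB+Dox. It fell by 1.28 ± 0.22 (SE, 2.44-fold, adjusted p = 0.00205) from control to Dox and by 1.00 ± 0.22 (SE, 2.0-fold, adjusted p = 0.0105) from SB to SB+Dox, the last call being lost without SB+Dox array 3 (adjusted p = 0.0651).

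Mad2l1 was 6.81, 7.24 and 7.14 in control, 6.20, 5.72 and 5.81 with Dox, 7.63, 7.81 and 7.78 with SB and 6.95, 7.06 and 6.73 with SB+Dox. Again the SB arrays were highest and the Dox arrays lowest without overlap, with control and SB+Dox between and overlapping each other. It rose by 0.68 ± 0.14 (SE, 1.60-fold, adjusted p = 0.00845) from control to SB and by 1.00 ± 0.14 (SE, 2.0-fold, adjusted p = 0.000254) from Dox to SB+Dox. It fell by 1.15 ± 0.14 (SE, 2.22-fold, adjusted p = 0.000193) from control to Dox and by 0.83 ± 0.14 (SE, 1.78-fold, adjusted p = 0.00239) from SB to SB+Dox. These 4 calls held with any 1 array left out.

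**Figure D4:**
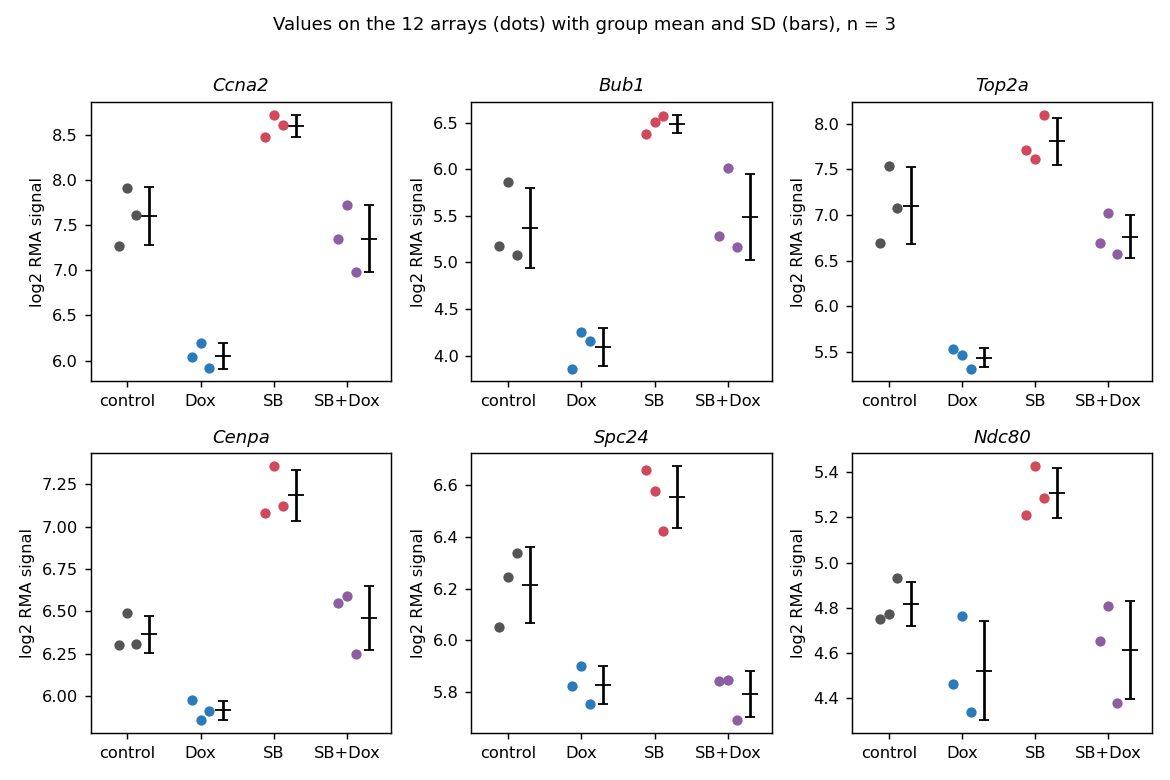
Log2 RMA signal of 6 members on each of 12 arrays (dots, replicates 1 to 3 from left to right in each group), with group mean and SD (n = 3) beside them; each panel has its own vertical range. Ccna2, Bub1, Top2a and Cenpa are highest with SB and lowest with Dox; SB+Dox arrays of Spc24 and Ndc80 overlap with their Dox arrays.

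Anaphase starts when Cdc20 and the ubiquitin-conjugating enzyme Ube2c let the anaphase-promoting complex destroy securin and cyclin B, which frees separase (Espl1) to cut cohesin. All 3 rose from control to SB, by 0.54 to 0.56, the 3 rises being close in size. From Dox to SB+Dox 1 of the 3 passed, Espl1, by 0.59 ± 0.13 (SE, 1.51-fold, adjusted p = 0.00551). Ube2c was 6.36, 6.71 and 6.69 in control, 6.23, 6.0 and 5.90 with Dox, 7.06, 7.23 and 7.17 with SB and 6.60, 6.43 and 6.27 with SB+Dox. Its groups did not overlap in any of the 4 comparisons above, and the SB+Dox and control arrays overlapped. It rose by 0.56 ± 0.12 (SE, 1.48-fold, adjusted p = 0.0112) from control to SB, a call lost without control array 1 (adjusted p = 0.0624) or SB array 2 (adjusted p = 0.0586). From Dox to SB+Dox its change was 0.39 ± 0.12 (SE, adjusted p = 0.0572), which passed without control array 1, Dox array 1 or SB+Dox array 3 (adjusted p = 0.0338 to 0.0432). It fell by 0.72 ± 0.12 (SE, 1.65-fold, adjusted p = 0.00239) from SB to SB+Dox and by 0.55 ± 0.12 (SE, 1.46-fold, adjusted p = 0.0144) from control to Dox. The latter call was lost without control array 2 or 3 or Dox array 2 or 3 (adjusted p = 0.0609 to 0.0835). Cdc20, the activator of the complex, rose from control to SB and changed by 0.33 ± 0.11 (SE, adjusted p = 0.0688) from Dox to SB+Dox and by -0.30 ± 0.11 (SE, adjusted p = 0.169) from control to Dox.

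Among mitotic kinases, Plk1 drives mitotic entry and spindle assembly, Aurka acts at spindle poles, Nek2 splits centrosomes, and Melk and Pbk are kinases raised in dividing cells. All 5 rose from control to SB, 4 of 5 rose from Dox to SB+Dox (not Aurka, 0.46 ± 0.16 (SE, adjusted p = 0.0973)), and all 5 fell in both doxycycline comparisons. For Aurka the fall from control to Dox was lost without any 1 of the 6 arrays compared (adjusted p = 0.0576 to 0.15), and the rise from control to SB without control array 1 or 3 or SB array 1 or 2 (adjusted p = 0.104 to 0.161). Plk1 was 7.13, 7.51 and 7.01 in control, 6.10, 6.27 and 5.71 with Dox, 7.82, 8.24 and 7.90 with SB and 7.08, 7.27 and 6.48 with SB+Dox. SB arrays lay above and Dox arrays below all others. It rose by 0.77 ± 0.20 (SE, 1.71-fold, adjusted p = 0.0306) from control to SB, lost without control array 1 or 3 or SB array 2 (adjusted p = 0.105 to 0.157), and by 0.91 ± 0.20 (SE, 1.89-fold, adjusted p = 0.00697) from Dox to SB+Dox. It fell by 1.19 ± 0.20 (SE, 2.28-fold, adjusted p = 0.00201) from control to Dox and by 1.04 ± 0.20 (SE, 2.06-fold, adjusted p = 0.00507) from SB to SB+Dox.

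Pbk was 5.73, 6.46 and 5.93 in control, 5.01, 4.74 and 4.78 with Dox, 6.85, 6.98 and 6.86 with SB and 6.04, 6.22 and 5.45 with SB+Dox. The SB arrays lay close together, and the control and SB+Dox arrays were spread more widely and overlapped. It had the largest change of the 5 kinases from control to SB, 0.85 ± 0.19 (SE, 1.81-fold, adjusted p = 0.0136), which did not pass without control array 1 or 3 or SB array 2 (adjusted p = 0.0571 to 0.0704). From Dox to SB+Dox it rose by 1.06 ± 0.19 (SE, 2.08-fold, adjusted p = 0.0018). It fell by 1.20 ± 0.19 (SE, 2.29-fold, adjusted p = 0.00132) from control to Dox and by 0.99 ± 0.19 (SE, 1.99-fold, adjusted p = 0.00518) from SB to SB+Dox.

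The chromosomal passenger complex corrects faulty attachments and later guides cytokinesis; it joins the kinase Aurkb with Incenp, its scaffold and activator, and with Birc5 (survivin) and Cdca8 (borealin), which place it on chromatin. All 4 subunits passed in all 4 comparisons. Aurkb was 6.63, 6.99 and 6.59 in control, 5.60, 5.68 and 5.74 with Dox, 7.27, 7.73 and 7.26 with SB and 6.40, 6.67 and 6.26 with SB+Dox. SB array 2 was the highest and the Dox arrays lay close together at the bottom. Aurkb rose by 0.68 ± 0.15 (SE, 1.60-fold, adjusted p = 0.0106) from control to SB, lost without control array 1 or 3 or SB array 2 (adjusted p = 0.0507 to 0.0608), and by 0.77 ± 0.15 (SE, 1.71-fold, adjusted p = 0.00265) from Dox to SB+Dox. It fell by 1.07 ± 0.15 (SE, 2.09-fold, adjusted p = 0.000451) from control to Dox and by 0.98 ± 0.15 (SE, 1.97-fold, adjusted p = 0.00114) from SB to SB+Dox.

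Incenp was 6.59, 6.75 and 6.65 in control, 5.79, 5.95 and 5.59 with Dox, 7.08, 7.27 and 7.12 with SB and 6.65, 6.78 and 6.53 with SB+Dox. Its control and SB+Dox arrays covered the same range, and its change between those groups was the smallest of the 51, -0.01 ± 0.11 (SE, adjusted p = 0.981). It rose by 0.49 ± 0.11 (SE, 1.41-fold, adjusted p = 0.0118) from control to SB, a call lost without control array 1 or SB array 2 (adjusted p = 0.058 to 0.0677), and by 0.88 ± 0.11 (SE, 1.84-fold, adjusted p = 8.90e-05) from Dox to SB+Dox. It fell by 0.89 ± 0.11 (SE, 1.85-fold, adjusted p = 0.000191) from control to Dox and by 0.51 ± 0.11 (SE, 1.42-fold, adjusted p = 0.00991) from SB to SB+Dox, the latter lost without SB array 2 or SB+Dox array 3 (adjusted p = 0.0547 to 0.0637). Birc5 rose by 0.62 and 0.54 and Cdca8 by 0.57 and 0.49 in the inhibitor comparisons without and with doxycycline. The Cdca8 calls were lost without control array 1 (adjusted p = 0.0612) in the first comparison and without Dox array 1 or 2 or SB+Dox array 1 or 2 (adjusted p = 0.0524 to 0.0701) in the second.

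The centromere and kinetochore genes were uneven. Cenpa is the histone H3 variant that marks centromeres, Cenpk belongs to the inner kinetochore, Cenpe is a kinetochore motor, Cenpf a large outer protein, and Ndc80, Nuf2, Spc24 and Spc25 are the 4 subunits of the NDC80 complex, which binds microtubules. Of these 8, 4 rose from control to SB (Cenpa, Cenpe, Ndc80 and Spc25) and 5 rose from Dox to SB+Dox (Cenpa, Cenpe, Cenpf, Nuf2 and Spc25). In each doxycycline comparison 7 of 8 fell, without Ndc80 from control to Dox and without Cenpk from SB to SB+Dox, which passed with the replicate block (adjusted p = 0.029). Cenpk, with group means of 3.86 ± 0.35 (SD, n = 3) in control and 3.06 ± 0.23 (SD, n = 3) with Dox, changed by 0.19 ± 0.18 (SE, adjusted p = 0.669) from control to SB and by 0.39 ± 0.18 (SE, adjusted p = 0.216) from Dox to SB+Dox.

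Cenpa was 6.30, 6.49 and 6.31 in control, 5.97, 5.86 and 5.91 with Dox, 7.08, 7.36 and 7.12 with SB and 6.55, 6.59 and 6.25 with SB+Dox. The SB arrays stood above all others. It rose by 0.82 ± 0.11 (SE, 1.77-fold, adjusted p = 0.000429) from control to SB, the smallest adjusted p of any member there, and by 0.55 ± 0.11 (SE, 1.46-fold, adjusted p = 0.00438) from Dox to SB+Dox. It fell by 0.72 ± 0.11 (SE, 1.65-fold, adjusted p = 0.00133) from SB to SB+Dox and by 0.45 ± 0.11 (SE, 1.37-fold, adjusted p = 0.0267) from control to Dox; this last call was lost without control array 1 or 2 or any 1 of the Dox arrays (adjusted p = 0.0521 to 0.123).

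In the NDC80 complex the values from Dox to SB+Dox ran from -0.03 for Spc24 and 0.09 for Ndc80 to 0.62 for Nuf2 and 0.74 for Spc25, and whether the subunits differ was not tested. In the other 3 of the 4 comparisons all 4 values had 1 sign. Spc24 was 6.05, 6.25 and 6.34 in control, 5.82, 5.90 and 5.76 with Dox, 6.66, 6.58 and 6.42 with SB and 5.84, 5.85 and 5.69 with SB+Dox. Its SB+Dox arrays lay at the level of its Dox arrays and below every control array, which was so for no other member. Its change from Dox to SB+Dox was -0.03 ± 0.10 (SE, adjusted p = 0.901), the smallest of the 51 and positive without Dox array 2 or SB+Dox array 3. From control to SB it changed by 0.34 ± 0.10 (SE, adjusted p = 0.062), which passed without control array 3 or SB array 3 (adjusted p = 0.0331 to 0.0479). Spc24 fell by 0.76 ± 0.10 (SE, 1.69-fold, adjusted p = 0.00056) from SB to SB+Dox and by 0.38 ± 0.10 (SE, 1.31-fold, adjusted p = 0.0377) from control to Dox, the latter lost on leaving out any 1 of 8 arrays, among them every Dox array (adjusted p = 0.0527 to 0.158). It was the 1 member that fell from control to SB+Dox, by 0.42 ± 0.10 (SE, 1.34-fold, adjusted p = 0.0252), and that call was lost without control array 2 or 3 or any 1 SB+Dox array (adjusted p = 0.0567 to 0.119).

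Ndc80 was 4.75, 4.77 and 4.93 in control, 4.46, 4.76 and 4.34 with Dox, 5.21, 5.43 and 5.28 with SB and 4.65, 4.81 and 4.38 with SB+Dox. Its SB arrays were the highest, while its other 3 groups overlapped one another. Ndc80 rose by 0.49 ± 0.13 (SE, 1.40-fold, adjusted p = 0.0322) from control to SB, a call lost without control array 1 or 2 or any 1 SB array (adjusted p = 0.0503 to 0.148), and fell by 0.69 ± 0.13 (SE, 1.62-fold, adjusted p = 0.00398) from SB to SB+Dox. Its change from Dox to SB+Dox was 0.09 ± 0.13 (SE, adjusted p = 0.77) and turned below 0 without Dox array 3 or SB+Dox array 2. From control to Dox it changed by -0.30 ± 0.13 (SE, adjusted p = 0.281), the smallest change there.

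Nuf2 was 6.11, 6.77 and 6.24 in control, 5.25, 5.18 and 5.32 with Dox, 6.86, 7.04 and 6.98 with SB and 5.98, 6.18 and 5.44 with SB+Dox. Control array 2 lay well above its partners and SB+Dox array 3 well below. Nuf2 changed by 0.59 ± 0.18 (SE, adjusted p = 0.0663) from control to SB, which passed without control array 2 or SB+Dox array 3 (adjusted p = 0.0155 to 0.0234). It rose by 0.62 ± 0.18 (SE, 1.54-fold, adjusted p = 0.0356) from Dox to SB+Dox, a call lost without any 1 Dox array or SB+Dox array 1 or 2 (adjusted p = 0.0752 to 0.179). It fell by 1.12 ± 0.18 (SE, 2.18-fold, adjusted p = 0.00126) from control to Dox and by 1.09 ± 0.18 (SE, 2.13-fold, adjusted p = 0.00184) from SB to SB+Dox. From control to SB+Dox its change was the largest of any member in size but did not pass, -0.50 ± 0.18 (SE, adjusted p = 0.146). The fourth subunit, Spc25, passed in all 4 comparisons, with a rise of 0.82 from control to SB and a fall of 1.04 from SB to SB+Dox. Its rise from control to SB was lost without control array 1 (adjusted p = 0.0673).

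All 6 spindle kinesins passed in all 4 comparisons, Kif20a only just from Dox to SB+Dox (0.49 ± 0.15, SE, adjusted p = 0.0499). That call was lost on leaving out any 1 of 9 arrays, all but control array 2, SB array 1 and SB+Dox array 3 (adjusted p = 0.0514 to 0.243). The rise of Kif20a from control to SB was lost without control array 1 or 3 or SB array 2 or 3 (adjusted p = 0.0618 to 0.158), and that of Kif11 without control array 1 or 3 or SB array 2 (adjusted p = 0.0593 to 0.0651). Kif11 pushes spindle poles apart, Kif23 and Kif20a work at the central spindle, Kif2c and Kif18b shorten microtubules, and Kif4 binds chromosome arms and the midzone. Kif4 was 4.59, 5.27 and 4.57 in control, 4.01, 4.24 and 3.86 with Dox, 5.67, 5.80 and 5.80 with SB and 4.71, 5.24 and 4.85 with SB+Dox. The SB arrays lay close together, and array 2 was the highest of both control and SB+Dox. Kif4 had the largest rise of the 6 from control to SB, 0.95 ± 0.18 (SE, 1.93-fold, adjusted p = 0.00423), and rose by 0.90 ± 0.18 (SE, 1.86-fold, adjusted p = 0.00341) from Dox to SB+Dox. It fell by 0.77 ± 0.18 (SE, 1.71-fold, adjusted p = 0.0166) from control to Dox, lost without control array 2 or Dox array 1 or 3 (adjusted p = 0.0554 to 0.0902), and by 0.82 ± 0.18 (SE, 1.77-fold, adjusted p = 0.01) from SB to SB+Dox, lost without SB+Dox array 3 (adjusted p = 0.0504).

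Kif18b was 6.38, 6.63 and 6.20 in control, 5.61, 5.69 and 5.27 with Dox, 7.13, 7.24 and 7.05 with SB and 6.42, 6.61 and 5.96 with SB+Dox. The SB arrays were above and the Dox arrays below all others. It rose by 0.74 ± 0.16 (SE, 1.66-fold, adjusted p = 0.0117) from control to SB, lost without control array 3 or SB array 2 (adjusted p = 0.0586 to 0.062), and by 0.81 ± 0.16 (SE, 1.75-fold, adjusted p = 0.00374) from Dox to SB+Dox. It fell by 0.88 ± 0.16 (SE, 1.84-fold, adjusted p = 0.00353) from control to Dox and by 0.81 ± 0.16 (SE, 1.75-fold, adjusted p = 0.00642) from SB to SB+Dox.

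Kif2c was 5.30, 5.64 and 5.73 in control, 4.77, 4.80 and 4.60 with Dox, 6.06, 6.43 and 6.24 with SB and 5.39, 5.77 and 5.14 with SB+Dox. Its inhibitor changes without and with doxycycline were nearly equal, 0.69 ± 0.16 (SE, 1.61-fold, adjusted p = 0.0143) and 0.71 ± 0.16 (SE, 1.64-fold, adjusted p = 0.00691), and so were its doxycycline changes, falls of 0.83 and 0.81. The first of these calls was lost without control array 1 or SB array 2 (adjusted p = 0.0747 to 0.0811). Kif11 had the largest falls among the kinesins, by 1.45 ± 0.18 (SE, 2.74-fold, adjusted p = 0.000241) from control to Dox and 1.10 ± 0.18 (SE, 2.14-fold, adjusted p = 0.00208) from SB to SB+Dox.

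Of the 6 spindle assembly proteins, 2 rose from control to SB (Dlgap5 and Aspm) and 4 from Dox to SB+Dox (Tpx2, Hmmr, Dlgap5 and Ckap2), and 5 fell in each doxycycline comparison. Tpx2 activates Aurka and seeds spindle microtubules, Nusap1 and Dlgap5 (HURP) stabilise them near chromosomes, Aspm focuses the poles, and Hmmr and Ckap2 bind spindle microtubules. Tpx2 was 6.69, 7.23 and 7.12 in control, 6.01, 5.79 and 5.71 with Dox, 7.33, 7.47 and 7.61 with SB and 6.72, 6.96 and 6.42 with SB+Dox. Its SB arrays lay above all others and its Dox arrays below, but the lowest SB array was close to the highest control array. Tpx2 changed by 0.46 ± 0.16 (SE, adjusted p = 0.11) from control to SB and rose by 0.86 ± 0.16 (SE, 1.82-fold, adjusted p = 0.00182) from Dox to SB+Dox. It fell by 1.18 ± 0.16 (SE, 2.26-fold, adjusted p = 0.000347) from control to Dox and by 0.77 ± 0.16 (SE, 1.71-fold, adjusted p = 0.00692) from SB to SB+Dox.

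Dlgap5 was 5.93, 6.11 and 5.91 in control, 5.42, 5.36 and 5.02 with Dox, 6.58, 6.63 and 6.85 with SB and 6.07, 6.27 and 5.76 with SB+Dox. Its SB arrays were the highest and its Dox arrays the lowest, with no overlap. It rose by 0.70 ± 0.14 (SE, 1.63-fold, adjusted p = 0.00625) from control to SB and by 0.77 ± 0.14 (SE, 1.70-fold, adjusted p = 0.00189) from Dox to SB+Dox. It fell by 0.71 ± 0.14 (SE, 1.64-fold, adjusted p = 0.00575) from control to Dox and by 0.65 ± 0.14 (SE, 1.57-fold, adjusted p = 0.0098) from SB to SB+Dox, the last lost without SB+Dox array 3 (adjusted p = 0.0608). Aspm rose from control to SB by 0.57 ± 0.14 (SE, 1.48-fold, adjusted p = 0.0254), a call lost without control array 1 or 3 or SB array 1 or 2 (adjusted p = 0.0718 to 0.119), and changed by 0.29 ± 0.14 (SE, adjusted p = 0.263) from Dox to SB+Dox.

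All 4 cytokinesis genes passed in all 4 comparisons. Prc1 bundles the midzone microtubules, Racgap1 and Ect2 switch on the GTPase RhoA at the cell's equator, and Anln (anillin) anchors the contractile ring there. Racgap1 was 8.38, 8.73 and 8.37 in control, 7.58, 7.61 and 7.28 with Dox, 9.11, 9.27 and 9.09 with SB and 8.51, 8.67 and 8.19 with SB+Dox. The groups kept their order with the SB arrays on top and the Dox arrays at the bottom, and control and SB+Dox overlapped. Racgap1 rose by 0.66 ± 0.14 (SE, 1.59-fold, adjusted p = 0.00851) from control to SB, lost without SB array 2 (adjusted p = 0.0507), and by 0.97 ± 0.14 (SE, 1.96-fold, adjusted p = 0.000284) from Dox to SB+Dox. It fell by 1.00 ± 0.14 (SE, 2.01-fold, adjusted p = 0.000451) from control to Dox and by 0.70 ± 0.14 (SE, 1.62-fold, adjusted p = 0.00612) from SB to SB+Dox. Anln rose by 0.59 ± 0.14 (SE, 1.51-fold, adjusted p = 0.0188) from control to SB, lost without control array 1 or 3 or SB array 2 (adjusted p = 0.0617 to 0.097), and by 1.19 ± 0.14 (SE, 2.28-fold, adjusted p = 5.53e-05) from Dox to SB+Dox.

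Condensin subunits Smc2, Smc4, Ncapg and Ncaph compact mitotic chromosomes, Top2a (DNA topoisomerase II alpha) untangles them, and Mki67 (Ki-67) coats them and is the common stain for dividing cells. Of these 6, 5 rose from control to SB, 6 rose from Dox to SB+Dox, 5 fell from SB to SB+Dox and 6 fell from control to Dox, Smc4 being the exception from control to SB and from SB to SB+Dox. Mki67 was 6.64, 7.08 and 6.52 in control, 5.51, 5.80 and 5.19 with Dox, 7.48, 7.53 and 7.66 with SB and 6.49, 6.99 and 6.36 with SB+Dox. Its 3 Dox arrays were below and its 3 SB arrays above all others. Mki67 rose by 0.81 ± 0.18 (SE, 1.75-fold, adjusted p = 0.0139) from control to SB, lost without control array 1 or 3 or SB array 2 (adjusted p = 0.0501 to 0.0671), and by 1.11 ± 0.18 (SE, 2.16-fold, adjusted p = 0.000844) from Dox to SB+Dox. It fell by 1.25 ± 0.18 (SE, 2.38-fold, adjusted p = 0.000671) from control to Dox and by 0.94 ± 0.18 (SE, 1.93-fold, adjusted p = 0.00525) from SB to SB+Dox.

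Top2a was 6.70, 7.54 and 7.07 in control, 5.53, 5.47 and 5.32 with Dox, 7.71, 7.61 and 8.10 with SB and 6.69, 7.02 and 6.57 with SB+Dox. Its Dox arrays lay more than 1 log2 unit below every other array. It had the largest fall of any member from control to Dox, 1.66 ± 0.18 (SE, 3.16-fold, adjusted p = 0.000123), and it fell by 1.05 ± 0.18 (SE, 2.07-fold, adjusted p = 0.00317) from SB to SB+Dox. It rose by 1.32 ± 0.18 (SE, 2.50-fold, adjusted p = 0.000252) from Dox to SB+Dox and by 0.70 ± 0.18 (SE, 1.63-fold, adjusted p = 0.033) from control to SB. That last call was lost without control array 1 or 3 or any 1 SB array (adjusted p = 0.0513 to 0.154). The other Top2a cluster had group means of 1.54, 1.15, 1.47 and 1.76 in control, Dox, SB and SB+Dox, at the bottom of the array's range, where a change cannot be read.

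Smc4 was 7.05, 7.31 and 6.95 in control, 6.70, 6.37 and 6.20 with Dox, 7.50, 7.28 and 7.51 with SB and 7.13, 7.16 and 6.85 with SB+Dox. SB array 2 lay below control array 2, so those groups overlapped. Smc4 changed by 0.32 ± 0.14 (SE, adjusted p = 0.233) from control to SB and by -0.38 ± 0.14 (SE, adjusted p = 0.124) from SB to SB+Dox, the smallest change of the 51 there, which passed after quantile normalization (adjusted p = 0.0461). It rose by 0.62 ± 0.14 (SE, 1.54-fold, adjusted p = 0.0077) from Dox to SB+Dox and fell by 0.68 ± 0.14 (SE, 1.60-fold, adjusted p = 0.00748) from control to Dox.

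Whether the inhibitor changed these genes by a different amount with doxycycline was tested with the interaction, the SB203580 change with doxycycline minus that without it. Of 51 members 0 were called by limma, where 0.895% of all clusters were called in either direction. That background turned on single arrays, with 17 clusters above and 10 below 0 without SB array 2, 17 and 11 without SB+Dox array 3, and 283 and 69 without SB array 3, against 158 and 37. Among members 5 had an unadjusted p under 0.05 (9.8%, against 11.4% of all clusters). The median difference was 0.13, from -0.40 to 0.62, against -0.03 over all genes. The inhibitor change was the larger one with doxycycline in 37 of 51 members. The share of all genes with a difference above 0 was not counted. With 1 array left out the median of the members ran from -0.01 to 0.23, so its sign turned on single arrays. The 95% intervals had a median half-width of 0.44, held 0 in 46 members and reached beyond 1 log2 unit in 2, so most differences of the size seen could not be told from 0 at 3 arrays a group.

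The 5 members with the lower p-values were Top2a, Anln and Incenp, whose difference was above 0, and Ndc80 and Spc24, whose difference was below 0. For Top2a it was 0.62 ± 0.26 (SE, 95% interval 0.06 to 1.17, adjusted p = 0.371), and for Anln 0.60 ± 0.20 (SE, 95% interval 0.18 to 1.02, adjusted p = 0.215). For Ndc80 it was -0.40 ± 0.18 (SE, 95% interval -0.79 to -0.01, adjusted p = 0.415), and for Spc24 -0.37 ± 0.14 (SE, 95% interval -0.68 to -0.07, adjusted p = 0.31). Kif2c had the smallest difference, 0.02 ± 0.22 (SE, 95% interval -0.44 to 0.49). None of these differences was called, and the same test, with its sign kept, asks whether doxycycline acted differently with the inhibitor.

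**Figure D5:**
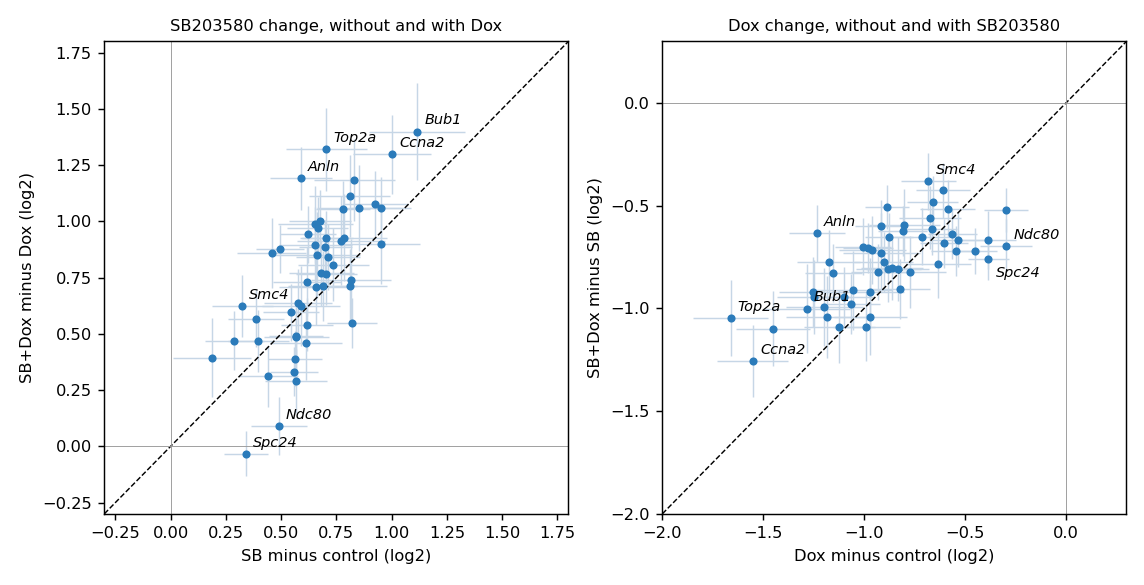
Log2 change of each of 51 members (dots, with SE bars) under SB203580 without (horizontal) and with doxycycline (vertical), left, and under doxycycline without and with SB203580, right; the dashed line marks equal changes. In 37 of 51 members the inhibitor change is larger with doxycycline, and Ndc80 and Spc24 lie far below the line on the left. No member was called in the interaction test.

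The other genes of the cell cycle come from lists written with the members' results known. Of 87 further mitotic genes 29 (33.3%) rose and 0 fell from control to SB, where 2.51% of all clusters rose and 3.87% fell. Their median change was 0.44. The 4 largest called rises were in Arhgap11a, 0.94 ± 0.15 (SE, 1.92-fold, adjusted p = 0.00131), Cdc25b, 0.87 ± 0.14 (SE, 1.83-fold, adjusted p = 0.00158), Cdca5, 0.84 ± 0.17 (SE, 1.79-fold, adjusted p = 0.00702), and Shcbp1, 0.83 ± 0.18 (SE, 1.78-fold, adjusted p = 0.0118). From Dox to SB+Dox 42 (48.3%, against 6.97% of all clusters) rose and 0 fell. From control to Dox 43 (49.4%, against 3.88%) fell and from SB to SB+Dox 50 (57.5%, against 2.71%) fell, with 0 rising in either. Trip13 alone (1.1%, against 2.42% of all clusters) fell from control to SB+Dox, by 0.52 ± 0.12 (SE, 1.43-fold, adjusted p = 0.0205). That call was lost without control array 2 or 3 or SB+Dox array 3 (adjusted p = 0.0785 to 0.108). The Shcbp1 rise was lost without control array 1 or 3 or SB array 2 (adjusted p = 0.0523 to 0.0607).

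Of 40 DNA replication genes 11 (27.5%, against 2.51% of all clusters) rose from control to SB and 17 (42.5%, against 6.97%) from Dox to SB+Dox. The medians were 0.31 and 0.30. From control to Dox 26 (65%, against 3.88%) fell, and 27 (67.5%, against 2.71%) fell from SB to SB+Dox. Rrm2 went the other way, with a called fall of 1.55 from Dox to SB+Dox and a called rise of 0.81 from control to Dox. The largest called rises from control to SB were in Uhrf1, 0.73, Prim1, 0.70, Tyms, 0.68, and Chaf1b, 0.68. Each of these 4 calls was lost without at least 1 array: Uhrf1 and Prim1 without control array 3 or SB array 1 or 2 (adjusted p = 0.0515 to 0.0744), Tyms without control array 1 (adjusted p = 0.0524), and Chaf1b without any 1 control array or SB array 1 or 2 (adjusted p = 0.0597 to 0.106). From control to SB+Dox 7 of the 40 (17.5%, against 2.42% of all clusters) fell (Mcm2, Mcm3, Mcm6, Mcm7, Rfc3, Rrm2 and Tk1) with a list median of -0.28. The calls of Mcm2, Mcm3, Mcm7, Rrm2 and Tk1 were each lost without 2 to 5 of the control and SB+Dox arrays, SB+Dox array 3 among them (adjusted p = 0.0514 to 0.127). For comparison, 1 of the 51 members fell with a median of -0.12. Whether the 2 lists differ there was not tested.

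Of 23 regulators of the cycle's transcription 0 rose and 1 (4.3%) fell from control to SB, where 2.51% of all clusters rose and 3.87% fell. The 1 that fell was E2f2, an activating E2F, by 0.74 ± 0.20 (SE, 1.67-fold, adjusted p = 0.038). That call was lost on leaving out any 1 of 8 arrays, all but SB array 3 and the SB+Dox arrays (adjusted p = 0.0505 to 0.17). From Dox to SB+Dox E2f1, E2f6, Tfdp2 and Rbl1 rose (17.4%, against 6.97% of all clusters) and E2f2 fell (4.3%, against 3.43%). The Tfdp2 call was lost without any 1 of the 6 arrays compared (adjusted p = 0.0589 to 0.0822). From control to Dox E2f1, E2f7 and Rbl1 fell (13.0%, against 3.88% of all clusters). The E2f1 call was lost without any 1 control array or Dox array 1 or 3 (adjusted p = 0.055 to 0.13). Rbl1, the pocket protein p107, fell by 1.01 ± 0.12 (SE, 2.02-fold, adjusted p = 0.000187). From SB to SB+Dox E2f7, Mybl2 and Rbl1 fell (13.0%, against 2.71% of all clusters). Rb1 alone (4.3%, against 4.4%), the retinoblastoma gene, rose there, by 1.08 ± 0.22 (SE, 2.11-fold, adjusted p = 0.00814). The E2f7 call from SB to SB+Dox was lost without SB array 2 or SB+Dox array 3 (adjusted p = 0.0549 to 0.0567). Of the 23, 2 (8.7%, against 2.84% of all clusters) rose from control to SB+Dox, Rb1 by 0.84 ± 0.22 (SE, 1.79-fold, adjusted p = 0.041) and E2f6 by 0.53 ± 0.12 (SE, 1.45-fold, adjusted p = 0.0199). There 2 (8.7%, against 2.42%) fell, E2f2 by 1.24 ± 0.20 (SE, 2.36-fold, adjusted p = 0.00182) and Lin9, a DREAM subunit, by 0.52 ± 0.13 (SE, 1.43-fold, adjusted p = 0.0346). Of all these calls from control to SB+Dox that of E2f2 held with any 1 array left out. The others were lost without 4 to 6 of the arrays: Rb1 without control array 1 or 3, Dox array 2, SB array 2 or SB+Dox array 2 or 3 (adjusted p = 0.0521 to 0.182), E2f6 without control array 1 or 3 or any 1 SB+Dox array (adjusted p = 0.0523 to 0.0916), and Lin9 without control array 1 or 2 or SB+Dox array 1 or 3 (adjusted p = 0.106 to 0.147).

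Of 6 measured inhibitors of cyclin-dependent kinases 0 were called from control to SB, where 2.51% of all clusters rose and 3.87% fell. Cdkn2d (p19INK4d), an inhibitor of Cdk4 and Cdk6, went the same way as the members. By limma it fell by 0.69 from control to Dox (adjusted p = 0.00385) and rose by 0.61 from Dox to SB+Dox (adjusted p = 0.00516). Its called fall from SB to SB+Dox was lost on leaving out any 1 of 8 arrays (adjusted p = 0.0503 to 0.198). It was the 1 gene of the 6 (16.7%) called in each, against 3.88%, 6.97% and 2.71% of all clusters in this order. List medians were -0.04 from control to Dox and 0.10 from Dox to SB+Dox. Cdkn1a, the p21 gene, is not analysed here. Of 9 G1 cyclins and kinases, Ccne1 (cyclin E1) and Cdk4 (22.2%) rose from control to SB, by 0.60 and 0.35, and Cdk6 (11.1%) fell by 0.51. The Ccne1 call was lost without SB array 2 (adjusted p = 0.0628), and the Cdk4 call without control array 1 or 2 or SB array 2 or 3 (adjusted p = 0.0517 to 0.0975). Of the 9, 5 (55.6%, against 6.97% of all clusters) rose from Dox to SB+Dox and 0 fell. Falls numbered 5 (55.6%, against 3.88%) from control to Dox and 3 (33.3%, against 2.71%) from SB to SB+Dox, with 0 rises in either. Among myoblast markers Myf5 rose from control to SB by 0.60 ± 0.15 (SE, 1.52-fold, adjusted p = 0.021), and Myod1 fell by 0.56 ± 0.15 (SE, 1.47-fold, adjusted p = 0.0356) and Cdh15 by 0.52 ± 0.12 (SE, 1.43-fold, adjusted p = 0.0197). These were lost without control array 2 or 3 or SB array 1 or 2 for Myf5 (adjusted p = 0.0757 to 0.0882), control array 1 or 2, Dox array 1 or SB array 1 for Myod1 (adjusted p = 0.0507 to 0.165), and control array 1 or 2 or SB array 1 for Cdh15 (adjusted p = 0.0796 to 0.0961). From Dox to SB+Dox Myf5 rose by 1.42 ± 0.15 (SE, 2.68-fold, adjusted p = 1.70e-05), and Myod1 fell by 1.14 ± 0.15 (SE, 2.21-fold, adjusted p = 0.000138) and Cdh15 by 0.47 ± 0.12 (SE, 1.38-fold, adjusted p = 0.0222), the last call lost without Dox array 1 or any 1 SB+Dox array (adjusted p = 0.0562 to 0.111). Myf5 fell by 1.16 ± 0.15 (SE, 2.23-fold, adjusted p = 0.000235) from control to Dox, and from control to SB+Dox Myod1 fell by 1.04 ± 0.15 (SE, 2.06-fold, adjusted p = 0.000693) and Cdh15 by 0.68 ± 0.12 (SE, 1.61-fold, adjusted p = 0.00377). From SB to SB+Dox 0 of the 6 were called by limma, with 4 at an unadjusted p under 0.05, which 20.9% of all clusters had. Of 5 housekeeping genes 0 were called in any of the 5 comparisons, and the largest of their changes from control to SB was that of Gusb, 0.18 ± 0.11 (SE, adjusted p = 0.422).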

How the data were processed

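Total RNA of 12 samples was labelled and run on Affymetrix arrays that probe whole transcripts. The authors summarised them with RMA in Affymetrix Expression Console, per the submitters' processing notes; its version and annotation are not given in the sources used here. Each deposited value is a log2 RMA signal of 1 transcript cluster and was used unchanged. All value columns were mapped to a sample by title. Of 35557 clusters, 21789 carry exactly 1 symbol and were tested; 1621 with several and 12147 with none were left out. Symbols come from GEO's platform annotation, and 21698 matched RefSeq's gene table by Entrez identifier.

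With limma 3.58.1 in R 4.3.3, 1 mean per group was fitted to all 12 arrays (lmFit, eBayes; 8 residual and 6.56 prior degrees of freedom) for 6 comparisons, each adjusted by Benjamini-Hochberg over the 21789 clusters and called at adjusted p under 0.05 with no minimum fold. Changes are log2 differences with their SE; values after a group mean are SDs. Arrays have no read depth, and 3 per group limit the precision.

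The members and lists were chosen with earlier results of these data known, so their counts are descriptions. Members given on every array are, per role, the one with the largest change from control to SB and the one with the highest mean over the 12 arrays, and, in each other comparison, the largest and smallest change. Up to 4 called genes of each other list are named by change from control to SB, or the largest if none was called; other called genes of short lists were named after their values were seen. The script was tested on simulated data.

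The labels number replicates 1 to 3. Same-numbered SB and SB+Dox arrays deviated together (correlations 0.44, 0.19 and 0.49, each above 0.1), so the numbers may pair those groups. In the other comparisons at least 1 pair was below 0.1. Same-numbered Dox and SB+Dox arrays were also the most alike, with correlations of 0.09, 0.28 and 0.15. The main fit left the replicate number out in every comparison, and the block named next takes it in. Alternatives were the replicate number as a block, each array left out, median centring, quantile normalization, a filter on clusters under the 25th percentile, a variance trend, array weights (statmod 1.5.0), all clusters tested, the mean of a gene's clusters, and only the groups compared.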

Additional observations from a re-analysis of the deposited data

Results flagged for a closer look

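No member had a called difference between the inhibitor changes with and without doxycycline, but 3 genes of the other cell cycle lists did, each by the limma interaction test. For Ccnd1 (cyclin D1, a partner of Cdk4 and Cdk6) the SB203580 change with doxycycline minus that without was 1.36 ± 0.21 (SE, adjusted p = 0.0135): it was 7.77, 7.49 and 8.07 in control, 6.51, 6.44 and 6.37 with Dox, 7.98, 7.67 and 7.94 with SB and 7.58, 7.98 and 8.09 with SB+Dox, so that the Dox arrays alone were low. That call was lost without SB array 2 (adjusted p = 0.0525). For Cdk6 the difference was 0.90 ± 0.15 (SE, adjusted p = 0.0164); the gene fell by 0.51 from control to SB and rose by 0.39 from Dox to SB+Dox. The difference did not pass without control array 1, SB array 2 or SB+Dox array 3 (adjusted p = 0.0504 to 0.0615), nor the rise without Dox array 1 or 3 or SB+Dox array 2 or 3 (adjusted p = 0.0719 to 0.137). For Rrm2, a subunit of the enzyme that makes deoxynucleotides, the difference was -1.60 ± 0.23 (SE, adjusted p = 0.00852). Rrm2 was 7.60, 8.03 and 7.51 in control, 8.66, 8.64 and 8.26 with Dox, 7.67, 7.95 and 7.67 with SB and 6.95, 7.22 and 6.73 with SB+Dox. It thus rose with Dox, where 26 of the 40 replication genes fell. Each of the 3 was found in lists of 183 measured genes and in a test where 0.895% of all clusters were called. With every cluster of the array tested, also those with no symbol or several, none of the 3 differences passed (adjusted p = 0.088 to 0.1 over the 3).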

How the results depend on the processing

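The direction of the member counts was the same under every alternative run: 0 members fell with SB203580 and 0 rose with doxycycline in any of them. The median change of the members moved by less than the SD between replicates of their mean, though with 1 array left out the small medians crossed 0, from -0.22 to 0.03 for SB+Dox against control and from -0.01 to 0.23 for the interaction. Counts of calls in 2 comparisons moved by over 1.5 times. From control to SB the 41 members that rose became 21 with every cluster tested, which adjusts over more clusters, and 18 to 43 with 1 array left out; under the other alternatives 37 to 49 rose. From control to SB+Dox the 1 that fell became 0 with every cluster tested and 0 to 1 with 1 array left out. Apart from single arrays, 36 to 46 rose from Dox to SB+Dox, 42 to 50 fell from SB to SB+Dox and 37 to 48 fell from control to Dox. The interaction had 0 calls among members throughout. Spc24 and Ndc80 changed sign from Dox to SB+Dox: Spc24 was 0.0041 without Dox array 2 and 0.018 without SB+Dox array 3, and Ndc80 was -0.0016 without Dox array 3 and -0.0066 without SB+Dox array 2. With 1 array left out Spc24 ranged from -0.069 to 0.018 and Ndc80 from -0.0066 to 0.21. None of these was called, and the cause was not tested.

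Counts over all clusters moved more. With array weights 1142 rose and 1652 fell from control to SB, against 547 and 843, and 554 rose and 1277 fell from control to Dox, against 311 and 845. Likewise 1710 rose and 1366 fell from SB to SB+Dox, against 959 and 591, 1000 rose and 935 fell from control to SB+Dox, against 618 and 528, and the interaction had 546 above and 132 below 0, against 158 and 37. With every cluster tested 316 rose and 560 fell from control to SB, 190 rose from control to Dox, 353 rose and 343 fell from control to SB+Dox, and the interaction had 4 and 2. From SB to SB+Dox 1302 rose and 415 fell after median centring and 851 rose and 800 fell after quantile normalization, after which the interaction had 50 above and 29 below 0. With 1 array left out, 277 to 582 rose and 502 to 1062 fell from control to SB, 427 to 1456 rose and 297 to 1065 fell from SB to SB+Dox, 169 to 374 rose and 551 to 931 fell from control to Dox, 1047 to 1673 rose and 526 to 838 fell from Dox to SB+Dox, and 322 to 728 rose and 321 to 623 fell from control to SB+Dox. The interaction then had 17 to 283 above and 10 to 69 below 0. No scaling moved the median over all clusters by 0.1. The checks on genes not given on every array, and on all clusters, were added after seeing the data.

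With the replicate block 45 members were called from control to SB, 44 from Dox to SB+Dox, 50 from SB to SB+Dox (48 without it), 48 from control to Dox, 1 from control to SB+Dox and 0 in the interaction. It added Cenpf, Nuf2, Nusap1 and Hmmr from control to SB (adjusted p = 0.0156 to 0.0412), Aurka from Dox to SB+Dox (adjusted p = 0.0271) and Cenpk and Ckap2 from SB to SB+Dox (adjusted p = 0.0191 to 0.029), and moved the interaction counts over all clusters to 356 and 65. It changed no other call of a member or of a called gene named here.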
